A study of Homo sapiens with 24 samples.

Results

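The HOX genes of the 4 human clusters HOXA, HOXB, HOXC and HOXD were examined in 4 aneuploid cell lines, each compared with the parental line from which it was made. Members were taken by name, as every gene called HOXA, HOXB, HOXC or HOXD followed by a number. The gene annotation of GRCh37 holds 39 such genes, and 33 of them had a value in at least 1 of the 4 comparison tables, among 16742 genes in all. These were all 11 HOXA genes, 9 of 10 HOXB genes, 8 of 9 HOXC genes and 5 of 9 HOXD genes. HOXB1, HOXC12, HOXD1, HOXD9, HOXD10 and HOXD12 had no value in any table used here.

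HOX genes encode transcription factors that bind DNA through a homeodomain and give cells their position along the body axis. In each cluster they lie in a row in the order in which they are used from head to tail, and genes with the same number in different clusters are paralogues. Low numbers are called anterior and high numbers posterior. Polycomb complexes keep the clusters silent where they are not used, Trithorax complexes and retinoic acid help to open them, and proteins of the PBX and MEIS families bind DNA together with HOX proteins. Adult gut epithelium keeps a positional HOX pattern, whereas tissues of the head, such as the retinal pigment epithelium, use few HOX genes.

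The data are mRNA sequencing of 24 libraries, 3 for each of 4 aneuploid and 4 parental lines. HCT116 is a human colon carcinoma line, and RPE1 is a retinal pigment epithelial line immortalized with hTERT. The labels give a modal chromosome number of 45 for the parental HCT116 lines and of 46 for the parental RPE1 lines. HCT116 5/4 has 4 copies of chromosome 5 and was compared with HCT116, and RPE1 5/3 12/3 has 3 copies of chromosomes 5 and 12 and was compared with RPE1. HCT116* 8/3 c7, with 3 copies of chromosome 8, was compared with HCT116*, and RPE1* 21/3, with 3 copies of chromosome 21, was compared with RPE1*. The asterisk marks a fluorescent histone, H2B-GFP, which the aneuploid lines marked with it share with their parental lines. HCT116* 8/3 c7 is a clone from a single cell, and each aneuploid karyotype is seen in a single line, so a change particular to a line cannot be told apart from a change that came with the chromosome. HCT116 5/4 was received from another laboratory, and the other aneuploid lines were made by transfer of a chromosome in microcells. Of these, RPE1 5/3 12/3 gained its extra chromosome 12 spontaneously.

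The HOXA cluster lies on chromosome 7, HOXB on chromosome 17, HOXC on chromosome 12 and HOXD on chromosome 2. Of the gained chromosomes only chromosome 12, in RPE1 5/3 12/3, carries a HOX cluster. Each deposited table holds for each gene the mean normalised count over 6 libraries, the log2 fold change of the aneuploid over the parental line, its standard error and p-values from the authors' DESeq2 fit. A gene was called when its adjusted p was under 0.05 and its log2 fold change above 0.6 or below -0.6, among genes with a mean of 10 or more. The tables give no value per library. The standard error therefore stands in for the spread between libraries. The fit pulls fold changes toward 0 and makes this error smaller too, most of all in HCT116* 8/3 c7, where its ceiling was 0.18. The level of each group was worked out from the mean and the fold change. No label says that the 3 libraries of a line came from separate cultures, so p-values may measure technical spread only. In such bulk samples fewer cells that use a gene and less of its RNA per cell cannot be told apart. The depth of single libraries is unknown from the tables, and the protocol gives 25000000 reads of 100 bases per library.

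The markers of the lines were read beside the HOX genes. In the table of HCT116 5/4, 7 of 10 colorectal epithelial markers had a value, and 5 were called. Of all genes in that comparison 20.6% were called. EPCAM, CDH1 and KRT20 fell, with log2 fold changes of -2.57 (standard error 0.25), -2.34 (0.25) and -3.26 (0.44), while KRT8 and KRT18 rose by 1.25 and 1.57. All 3 mesenchymal markers with a mean of 10 or more rose there, VIM by 2.74, FN1 by 0.90 and ZEB1 by 3.32. The summed level of the colorectal markers was 78191 in HCT116 and 153778 in HCT116 5/4, almost all of it keratins, and that of the mesenchymal markers 1030 and 2967. VIL1, CDX1 and LGR5 had no value in that table. No marker was called in HCT116* 8/3 c7 or RPE1* 21/3 by the DESeq2 fit, and 2 had an unadjusted p under 0.05 in each. In RPE1 5/3 12/3, 4 of the 8 retinal pigment epithelial markers with a mean of 10 or more were called, where 16.6% of all genes were. MITF was at -1.03, BEST1 at -1.23, RPE65 at -3.27 and RLBP1 at 3.35. MITF and OTX2 had means of 1439 and 715 normalised counts in that table. RPE65, which defines that epithelium, was near the lowest levels in both RPE1 tables, with means of 10.4 and 4.58 normalised counts, while it had a mean of 287 in the table of HCT116 5/4. The part of these shifts in the HOX results was not tested.

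The windows from 250 bases before to 50 bases after the transcription start are printed for the HOXA and HOXC genes that were called and have a RefSeq promoter in the reference used here. They are given on build GRCh38.p14, 5′ to 3′ on the gene's strand, with every CG in capitals, because CG-rich promoters are a feature by which HOX genes are known. HOXC4 and HOXC5 share the same start and window, and HOXA3 has 7 starts, of which the window nearest to the HOXA2 side is shown.
HOXA4 (chr7:27130708-27131007, minus strand): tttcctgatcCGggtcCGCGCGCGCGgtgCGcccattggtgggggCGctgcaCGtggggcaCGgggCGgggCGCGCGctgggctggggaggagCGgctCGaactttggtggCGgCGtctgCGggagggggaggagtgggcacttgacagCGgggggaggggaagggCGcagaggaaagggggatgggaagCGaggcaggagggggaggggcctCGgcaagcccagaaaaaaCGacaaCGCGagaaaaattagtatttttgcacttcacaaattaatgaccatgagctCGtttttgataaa
HOXA9 (chr7:27165488-27165787, minus strand): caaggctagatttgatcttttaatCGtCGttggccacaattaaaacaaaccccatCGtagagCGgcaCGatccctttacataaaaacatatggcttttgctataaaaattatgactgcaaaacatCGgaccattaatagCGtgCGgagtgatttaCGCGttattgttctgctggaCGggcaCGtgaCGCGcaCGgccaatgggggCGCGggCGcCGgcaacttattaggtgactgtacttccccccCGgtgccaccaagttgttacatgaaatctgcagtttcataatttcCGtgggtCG
HOXC4 and HOXC5 (chr12:54016638-54016937, plus strand): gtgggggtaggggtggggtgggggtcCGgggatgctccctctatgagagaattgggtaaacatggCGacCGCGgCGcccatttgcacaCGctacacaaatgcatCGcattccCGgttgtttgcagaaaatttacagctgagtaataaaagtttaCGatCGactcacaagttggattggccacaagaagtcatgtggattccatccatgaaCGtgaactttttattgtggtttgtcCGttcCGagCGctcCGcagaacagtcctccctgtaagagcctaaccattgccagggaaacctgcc
HOXA3 (chr7:27113793-27114092, minus strand): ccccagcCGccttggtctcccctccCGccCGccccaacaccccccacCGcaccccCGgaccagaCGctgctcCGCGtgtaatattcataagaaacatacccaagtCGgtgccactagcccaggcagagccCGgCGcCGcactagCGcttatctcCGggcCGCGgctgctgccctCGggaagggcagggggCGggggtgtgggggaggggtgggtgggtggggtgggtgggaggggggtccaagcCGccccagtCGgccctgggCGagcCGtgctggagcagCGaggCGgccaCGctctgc

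The HOXA4 window holds 27 CG, more than 71.8% of the 35116 promoter windows of 27305 genes. The HOXA9 window holds 22, the shared HOXC4 and HOXC5 window 15 and the HOXA3 window 25, against a median of 14 over all windows and of 22.5 over the 26 distinct HOX windows. These 26 windows belong to 20 HOX genes, 16 of them among the 33 with a value. Searched on both strands, TATAAA was found in 5 of the 26 HOX windows (19.2%) and in 11.5% of all windows, and HOXA9 was among the 5. CCAAT was found in 17 of the 26 (65.4%) and in 34.6% of all windows, and the HOXA4, HOXA9 and shared HOXC windows hold it. TAATTA, a core that many homeodomains bind, was found in 2 of the 26 (7.69%) and in 4.84% of all windows, and in none of those printed. A base may belong to a match of more than 1 motif. HOXA5, HOXC6, HOXC8, HOXC13 and HOXB5 have no entry.

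**Figure D1:**
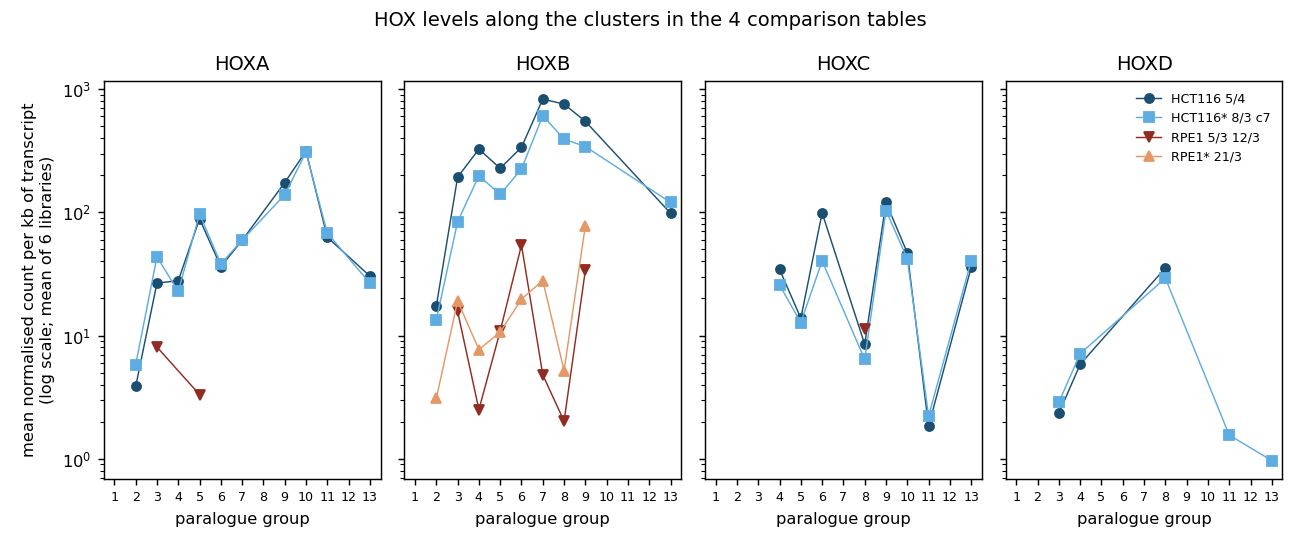
Mean normalised count per kb of transcript (vertical axis, log scale) of HOX genes against their paralogue number (horizontal axis) in the 4 comparison tables; each point is the mean over 6 libraries. In the HCT116 tables HOXA peaks at HOXA10 and HOXB at HOXB7, while of the RPE1 tables that of RPE1* 21/3 has values in HOXB only and that of RPE1 5/3 12/3 also for HOXA3, HOXA5 and HOXC8.

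The HCT116 tables held most HOX genes and the RPE1 tables few. Of the 39 genes, 31 had a value in the HCT116 5/4 table and 33 in the HCT116* 8/3 c7 table, and 27 had a mean of 10 or more in each. For RPE1 5/3 12/3, 10 had a value and 6 a mean of 10 or more, and for RPE1* 21/3 the counts were 8 and 7. The smallest mean of any gene with a value was 3.36 normalised counts for HCT116 5/4, 1.98 for HCT116* 8/3 c7 and 3.25 for each RPE1-derived line. HOXA, HOXC and HOXD thus had few values in RPE1 cells, with 3 of 29 genes valued in RPE1 5/3 12/3 and none in RPE1* 21/3. This split between the gut line and the retinal line is a description, since the tables were normalised separately.

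Per kb of transcript, HOXA10 was the highest HOXA gene in both HCT116 tables, at 314 and 307 normalised counts per kb. HOXA9 followed at 174 and 139 and HOXA5 at 88.6 and 97.0, and HOXA2 was the lowest at 3.86 and 5.81. HOXC9 led HOXC at 120 and 103 normalised counts per kb, and HOXC11 was the lowest there at 1.84 and 2.22. HOXD8 alone carried HOXD, at 35.4 and 29.2, with HOXD3 and HOXD4 at 2.34 to 7.13. HOXD11 and HOXD13 had values in the HCT116* 8/3 c7 table only, at 1.56 and 0.966 normalised counts per kb. HOXB stood above the other clusters, with HOXB7 at 830 and 609. A rank correlation with the paralogue number was taken on the mean normalised count, not on the level per kb. Over the HOXA genes past the filter it was 0.73 in the HCT116 5/4 table and 0.59 in the other (10 genes each, which share libraries). HOXA11 and HOXA13, at the posterior end, lay below HOXA10.

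In HCT116 5/4, 11 of the 27 HOX genes with a mean of 10 or more were called, 10 higher and 1 lower than in HCT116. The background of all genes in that comparison was 20.6% called, and the share of the HOX genes was 40.7%. Of HOXA 2 of 10 were called, of HOXB 6 of 9, of HOXC 3 of 7 and of HOXD 0 of 1. HOXA, HOXC and HOXD together gave 5 of 18, or 27.8%, which is nearer to the background. The median log2 fold change was 0.45 over the 27 HOX genes and 0.44, 0.73 and 0.40 in HOXA, HOXB and HOXC, where the median of all genes was -0.00044. Of the 27 genes 23 had a fold change above 0.

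**Figure D2:**
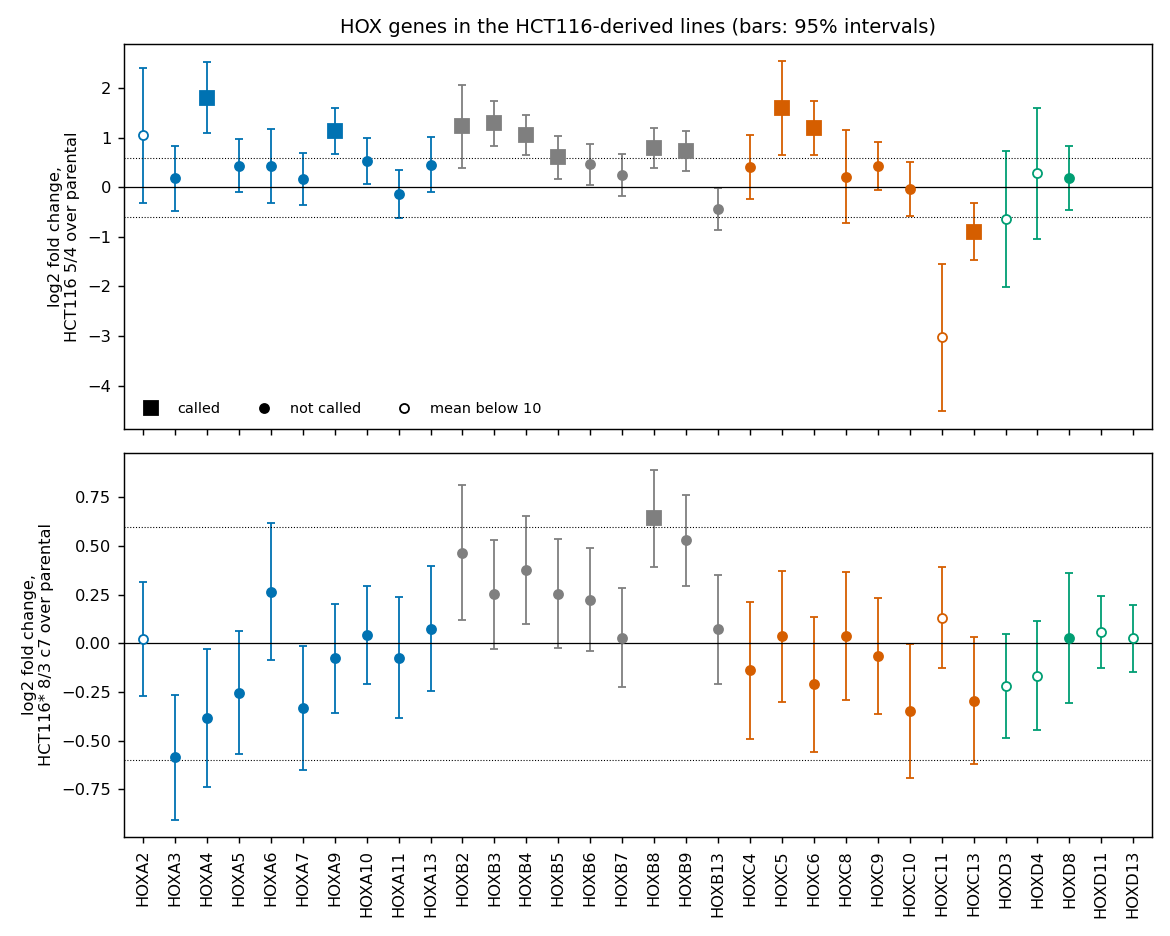
Log2 fold change of HOX genes (vertical axis, aneuploid over parental, with different scales in the panels) in HCT116 5/4 and HCT116* 8/3 c7, ordered by cluster and number; bars are 95% intervals from the standard errors, dotted lines mark 0.6 and -0.6, and colours mark the clusters. In the upper panel 10 genes of HOXA, HOXB and HOXC are called above 0 and HOXC13 below it, and in the lower panel HOXB8 is the only gene called.

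HOXA4, a gene that helps to pattern the neck vertebrae, had the largest rise. Its level was 20.9 normalised counts in HCT116 and 73.2 in HCT116 5/4, a log2 fold change of 1.81 (standard error 0.36, adjusted p = 8.69e-06, Wald test of the authors' DESeq2 fit). HOXA9, a posterior gene known for its part in blood stem cells and leukaemia, was at 226 in HCT116 and 494 in HCT116 5/4, a log2 fold change of 1.13 (0.24, adjusted p = 2.84e-05). These were the only HOXA genes called. The exons of HOXA9 overlap those of a readthrough transcript with HOXA10, of the antisense RNA HOXA10-AS and of MIR196B, a microRNA gene, and the exons of HOXA4 overlap HOXA-AS2 and HOXA-AS3. The counting parameters name no strand option, which by default means counting without regard to strand, so the counts of overlapping genes are uncertain. The MIR196B gene, counted here in the mRNA libraries and not as mature microRNA, rose by 1.02 (standard error 0.34, adjusted p = 0.015), while HOXA-AS3 was at 0.17 (0.55).

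The neighbours of HOXA4 and HOXA9 in the cluster did not pass. HOXA10, the highest HOXA gene, was at 653 normalised counts in HCT116 and 943 in HCT116 5/4, a log2 fold change of 0.53 (standard error 0.24, adjusted p = 0.0985). HOXA5 stood at 0.44 (0.27), HOXA7 at 0.16 (0.27) and HOXA13, a gene of the hindgut and limb tip, at 0.45 (0.28). HOXA11 was the only HOXA gene below 0, at -0.14 (0.25). HOXA3 and HOXA6, with means of 80.6 and 35.8, had log2 fold changes of 0.18 and 0.43. HOXA2 had a mean of 6.51, under the filter. The 95% interval of HOXA10 ran from 0.07 to 0.99, that of HOXA7 from -0.37 to 0.69 and that of HOXA9 from 0.66 to 1.59. Whether these genes differed from each other was not tested.

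In HOXC 2 central genes rose and the most posterior gene fell. HOXC6 rose from 99.3 to 228 normalised counts, a log2 fold change of 1.20 (standard error 0.28, adjusted p = 0.000171). HOXC5 rose from 11.1 to 33.4, a log2 fold change of 1.60 (0.48, adjusted p = 0.00632). HOXC13, the most posterior gene, known for its role in hair and nails, fell from 109 to 58.9, by 0.89 on the log2 scale (0.30, adjusted p = 0.0153), and was the only HOX gene called lower. HOXC11, next to it but for HOXC12, had an implied level of 10.7 in HCT116 and 1.31 in HCT116 5/4 and a log2 fold change of -3.03 (0.76, adjusted p = 0.000644), but its mean of 6.01 is under the filter and it was not called.

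HOXC4 was at 0.40 (standard error 0.33), HOXC8 at 0.21 (0.48), HOXC9 at 0.43 (0.25) and HOXC10 at -0.04 (0.28), none of them called. In the annotation HOXC4 and HOXC6 share exons, HOXC5 shares exons with readthrough transcripts, and the promoter window printed above serves both HOXC4 and HOXC5, so which of these 3 genes a read belongs to is uncertain. Whether HOXC5 differed from HOXC4 was not tested. The rank correlation of the log2 fold change with the paralogue number was -0.71 over the 7 HOXC genes, -0.73 over the 9 HOXB genes and -0.14 over the 10 HOXA genes. The genes of a cluster share their libraries and some of their exons.

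HOXD took no part in these calls. HOXD8 went from 86.6 to 98.6 normalised counts, a log2 fold change of 0.19 (standard error 0.33). HOXD3 and HOXD4, with means of 5.74 and 6.64, had fold changes of -0.64 (0.70) and 0.29 (0.67). In HOXB the genes called were HOXB2 at 1.23, HOXB3 at 1.29, HOXB4 at 1.05, HOXB5 at 0.60, HOXB8 at 0.80 and HOXB9 at 0.73, which form a stretch broken by HOXB6 at 0.46 and HOXB7 at 0.26. HOXB13, which lies apart from the rest of its cluster, was at -0.44 (0.22, adjusted p = 0.151).

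Differences within a paralogue group were not tested, and the values are set side by side. In group 4, HOXA4 was at 1.81, HOXB4 at 1.05 and HOXC4 at 0.40. In group 9, HOXA9 was at 1.13, HOXB9 at 0.73 and HOXC9 at 0.43, with all 3 above 0 and the first pair called. In group 13, HOXA13 was at 0.45, HOXB13 at -0.44 and HOXC13 at -0.89. By position, 2 of 4 anterior genes (numbers 1 to 3), 6 of 14 central genes (4 to 8) and 3 of 9 posterior genes (9 to 13) were called (background 20.6%). These groups pool the clusters, and HOXB gave 6 of the 11 calls. The anterior genes called were HOXB2 and HOXB3, so position and cluster cannot be told apart in these counts.

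**Figure D3:**
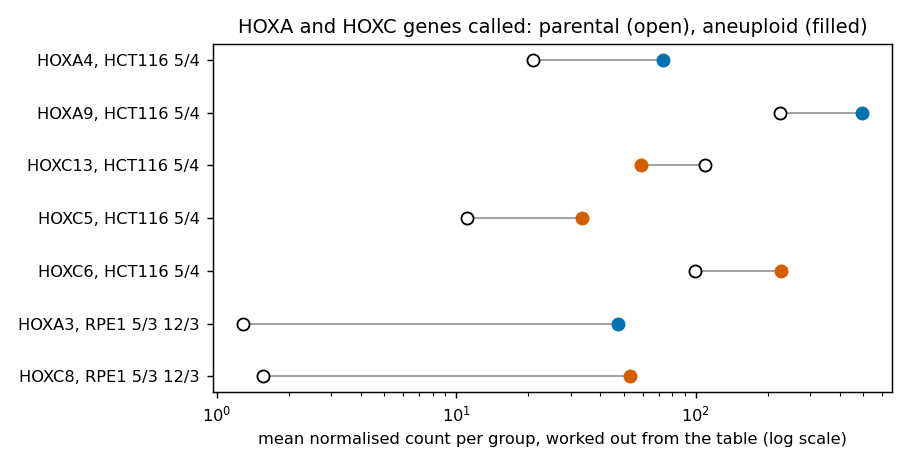
Level of the parental line (open) and the aneuploid line (filled) for the HOXA and HOXC genes called, in mean normalised counts (horizontal axis, log scale) worked out from the mean and the fold change; 1 row per gene and line. HOXA3 and HOXC8 in RPE1 5/3 12/3 start from 1.29 and 1.56 counts and end near 50, while the HCT116 5/4 genes move between levels of 11.1 and 494.

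In HCT116* 8/3 c7 the fold changes of the HOX genes were small, all between -0.59 and 0.64 among those past the filter on the mean. HOXB8 was the only gene called, 1 of 27 (3.70%) against a background of 1.80%, with a level of 667 in HCT116* and 1041 in the aneuploid line and a log2 fold change of 0.64 (standard error 0.13, adjusted p = 3.8e-05). Of HOXA, HOXC and HOXD 0 of 18 were called by the DESeq2 fit, and 4 had an unadjusted p under 0.05. HOXA3 came nearest, with a level of 158 in HCT116* and 105 in HCT116* 8/3 c7 and a log2 fold change of -0.59 (0.16, adjusted p = 0.0147), just short of the threshold on the fold change. Standard errors in this table had a ceiling of 0.18, as a strong pull of fold changes toward 0 leaves, and with this pull undone HOXA3 was at -0.82 and passed.

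HOXA4 was at -0.38 (standard error 0.18), HOXA7 at -0.33 (0.16) and HOXA5 at -0.25 (0.16), while HOXA6 was at 0.27 (0.18), none of them with an adjusted p under 0.05. HOXC10 was at -0.35 (0.17) and HOXC13 at -0.29 (0.17). HOXA9 and HOXA10 were at -0.08 (0.14) and 0.04 (0.13), and HOXC6, HOXC9 and HOXD8 at -0.21 (0.18), -0.06 (0.15) and 0.03 (0.17). The median over HOXA was -0.08 and over HOXC -0.14, where that of all genes was 0.0061. All 9 HOXB genes were above 0, with a median of 0.26.

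The difference between the HCT116-derived lines was tested gene by gene, as the log2 fold change in HCT116 5/4 minus that in HCT116* 8/3 c7 over the combined standard error, with adjustment over 13570 genes. Of the 27 HOX genes 6 were called (background 18.9%), all higher in HCT116 5/4. The difference was 2.19 (standard error 0.40, adjusted p = 1.28e-06) for HOXA4, 1.21 (0.28, adjusted p = 0.000189) for HOXA9 and 1.41 (0.33, adjusted p = 0.00023) for HOXC6. For HOXC5 it was 1.56 (0.51, adjusted p = 0.0151), and HOXB3 and HOXB4 gave 1.04 and 0.68. Of the 27 differences 24 were above 0. HOXB8 and HOXB9 differed between the lines by 0.15 (95% interval -0.32 to 0.63) and 0.20 (-0.27 to 0.66). The interval of HOXA9 was 0.66 to 1.75, and the genes were not tested against each other.

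The difference for HOXC13, -0.60 (standard error 0.34, adjusted p = 0.242), did not pass, so its fall in HCT116 5/4 is not shown to be larger than in HCT116* 8/3 c7. HOXA3 and HOXA5 differed by 0.76 (0.37) and 0.69 (0.32) with adjusted p = 0.153 and 0.119 by the same test across all genes (normal p from the DESeq2 errors). The 6 genes called were 2 each of HOXA, HOXB and HOXC. The stronger pull of fold changes toward 0 in the HCT116* 8/3 c7 table enters these differences, and with it undone 5 genes passed.

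**Figure D4:**
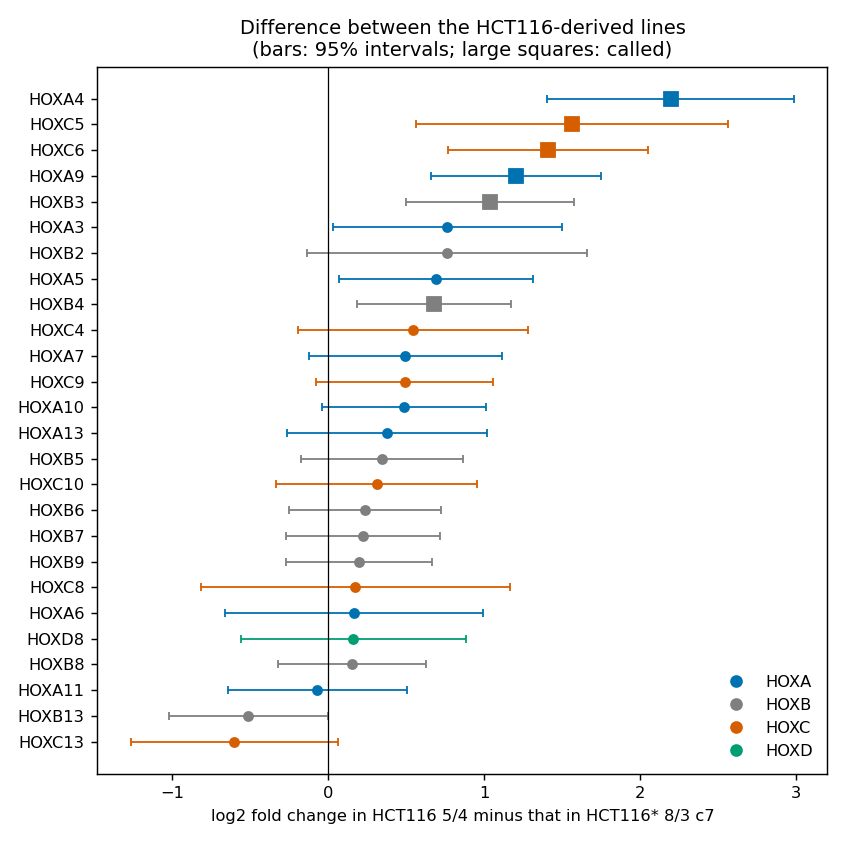
Difference of the log2 fold change between HCT116 5/4 and HCT116* 8/3 c7 (horizontal axis) drawn for 26 of the 27 HOX genes with a mean of 10 or more in both tables and ordered by size, with a gene that is not reported here left out; bars are 95% intervals and large squares the 6 genes called. HOXA4 is at the top with 2.19 and HOXC13 at the bottom with -0.60.

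HOX genes with very low implied levels in the parental line rose in RPE1 5/3 12/3. HOXA3, HOXC8 and HOXB5 were called, 3 of the 6 genes with a mean of 10 or more (background 16.6%), all higher than in RPE1. These 3 genes passed the filter on the mean only through the aneuploid line, so that a large rise was needed for them to be tested, and nothing is read from their count or direction against the background. HOXA3 had an implied level of 1.29 normalised counts in RPE1 and 47.5 in RPE1 5/3 12/3, a log2 fold change of 5.20 (standard error 0.67, adjusted p = 5.71e-13). HOXC8, a central gene that patterns the thorax, had implied levels of 1.56 and 53.0, a log2 fold change of 5.08 (0.63, adjusted p = 5.73e-14). HOXB5 was at 3.71 and 36.7, a log2 fold change of 3.31 (0.56, adjusted p = 1.01e-07). HOXA5, with 1.07 and 10.0 and a log2 fold change of 3.22 (0.76, adjusted p = 0.00029), had a mean of 5.54, under the filter.

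The fold changes of HOXA3 and HOXC8 go with implied parental levels near 1 count, which were worked out from those same fold changes. Whether any parental library was at 0 is not known from the table, so the size of the fold is not given as a bound. The standard errors were large for genes of that level: 99.1% of the genes with a mean within a factor of 1.25 of HOXA3, and 97.5% of those near HOXC8, had a smaller one. HOXC8 has no exon shared with another gene in the annotation, nor does HOXA5, while HOXA3 overlaps HOXA-AS2 and HOXA-AS3. HOXA3 and HOXA5 lie close together in their cluster, and HOXA4 between them had no value in that table.

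**Figure D5:**
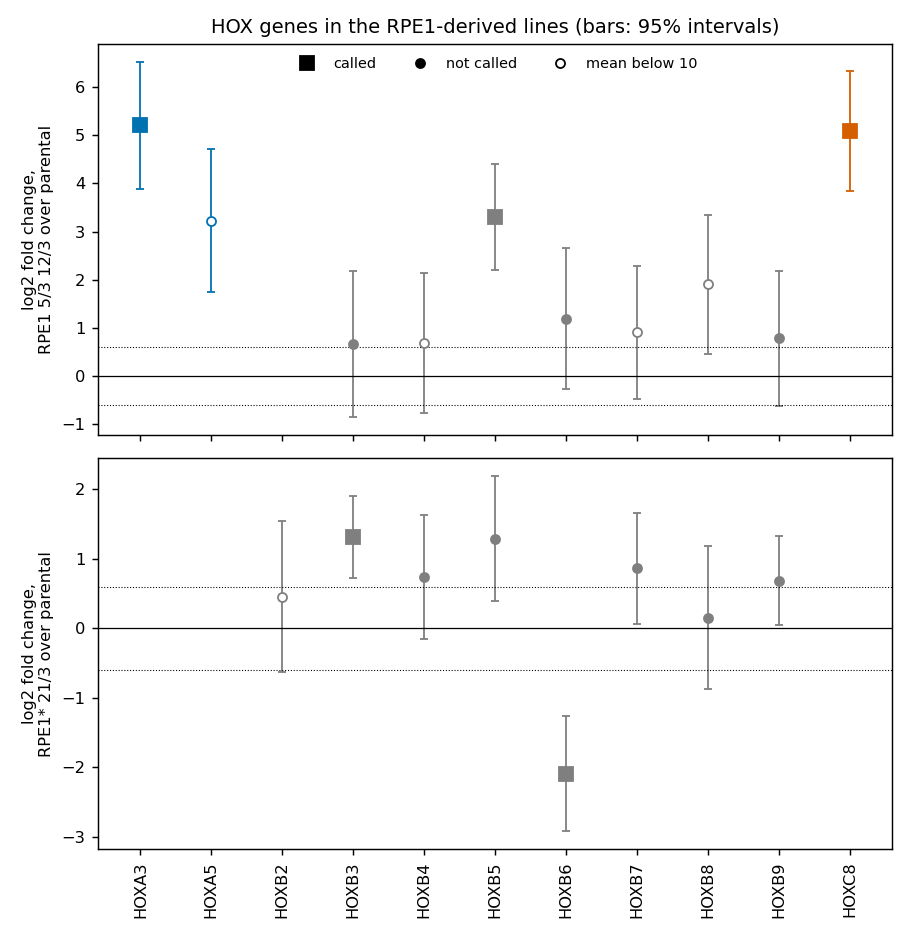
Log2 fold change of the HOX genes with a value in RPE1 5/3 12/3 or RPE1* 21/3 (vertical axis, aneuploid over parental, with different scales in the panels); bars are 95% intervals, dotted lines mark 0.6 and -0.6, and colours mark the clusters. HOXA3 and HOXC8 stand above 5 in the upper panel, where HOXB5 is at 3.31, and in the lower panel HOXB3 is called above 0 and HOXB6 below it.

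HOXC8 lies on chromosome 12, which has 3 copies in RPE1 5/3 12/3. The 684 other genes of chromosome 12 with a mean of 10 or more had a median log2 fold change of 0.43, where 3 copies to 2 would give 0.58, and 95% of them were below 1.23. HOXC8 was at 5.08, and the largest value among these 684 genes was 5.54. Since HOXC8 passed the filter on the mean only through the aneuploid line, nothing is read from its place among them. The 59 genes within 2 Mb of the HOXC cluster had a median of 0.55, with 19 called higher and 6 lower, or 42.4% called. Of the 684 genes, which include these 59, 30.3% were called. HOTAIR is a long RNA made from the HOXC cluster between HOXC11 and HOXC12 on the opposite strand. It was the single RNA of the clusters with a value, out of 32 names listed. Its implied levels were 1.29 in RPE1 and 37.3 in RPE1 5/3 12/3, at a mean of 19.3. The log2 fold change was 4.85 (standard error 0.69, adjusted p = 8.48e-11, Wald test of the DESeq2 fit). HOTAIR also passed the filter only through the aneuploid line, so nothing is read from its direction. Of the 8 genes listed next to HOXC, HNRNPA1 rose by 0.69, ATP5G2 by 0.80 and NFE2 by 1.04, and the other 5 did not pass.

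HOXA3 lies on chromosome 7, which was not gained. SKAP2, the gene next to the anterior end of HOXA, rose there by 1.96 (standard error 0.32, adjusted p = 2.84e-08), while HIBADH and TAX1BP1, beyond the posterior end, were at 0.03 (0.17) and 0.15 (0.21). The 10 genes within 2 Mb of HOXA had a median of -0.11, with 1 called higher and 3 lower against the background of 16.6%. No HOXD gene had a value in either RPE1 table.

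HOXB was the only cluster with a value in RPE1* 21/3. There 2 of 7 genes were called (background 3.31%), in opposite directions. HOXB3 went from 36.2 to 89.8 normalised counts, a log2 fold change of 1.31 (standard error 0.30, adjusted p = 0.00087). HOXB6 fell from 53.6 to 12.6, a log2 fold change of -2.09 (0.42, adjusted p = 7.41e-05), although some of its exons overlap HOXB3 on the same strand. HOXB5 was at 1.29 (0.46, adjusted p = 0.113) and HOXB9, the highest HOX gene per kb there, at 0.69 (0.33).

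In RPE1 5/3 12/3 the HOXB genes with the larger means did not pass. HOXB6 was at 1.19 (standard error 0.74), HOXB9 at 0.79 (0.71) and HOXB3 at 0.67 (0.77), and 99.0% to 99.8% of genes of similar mean had smaller standard errors. Between the RPE1-derived lines 4 HOX genes could be compared, all of HOXB. HOXB6 differed by 3.28 (0.85, adjusted p = 0.00279; background 9.32%), and HOXB5 by 2.02 (0.72, adjusted p = 0.055), which did not pass. HOXB3 and HOXB9 differed by -0.64 (0.83) and 0.10 (0.79).

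Genes that act with or on HOX genes were counted from lists. Of the 7 PBX, MEIS and PKNOX cofactors with a mean of 10 or more in each table, 2 were called in HCT116 5/4, with MEIS2 lower by 2.36 (standard error 0.23) and PBX4 higher by 0.74 (0.27), a share of 28.6% against the background of 20.6%. In HCT116* 8/3 c7 MEIS2 fell by 0.95 (0.14). None was called in the RPE1-derived lines by the DESeq2 fit, with 0 at an unadjusted p under 0.05, and MEIS2 was at 0.27 and 0.22. MEIS2 was thus the only cofactor called in both HCT116-derived lines, with the same sign.

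Of 27 Polycomb genes 5 were called in HCT116 5/4, 3 higher and 2 lower, or 18.5% against the background of 20.6%. PHF1 and MTF2, related accessory proteins of the complex that methylates histone H3, had log2 fold changes of 1.18 (standard error 0.20) and -0.84 (0.22). CBX7, a reader of that mark, rose by 0.91 (0.26). In RPE1 5/3 12/3 PHF1 alone was called, at 0.62, and in HCT116* 8/3 c7 and RPE1* 21/3 none of the 27 by the DESeq2 fit, with 1 and 0 at an unadjusted p under 0.05. EZH1 and EZH2, the catalytic subunits, were among the genes not called in any line. Of the 12 Trithorax genes with a value, MLL rose by 0.69 (standard error 0.24) in RPE1 5/3 12/3, and none was called in the other lines by the DESeq2 fit, where 1, 1 and 0 in HCT116 5/4, HCT116* 8/3 c7 and RPE1* 21/3 had an unadjusted p under 0.05.

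Of the retinoid and CDX genes past the filter on the mean, 2 of 7 were called in HCT116 5/4, 0 of 8 in HCT116* 8/3 c7 (3 at an unadjusted p under 0.05 in the DESeq2 fit), 1 of 8 in RPE1 5/3 12/3 and 0 of 7 in RPE1* 21/3 (1 at that p). The shares of 28.6% in HCT116 5/4 and 12.5% in RPE1 5/3 12/3 are near the backgrounds of 20.6% and 16.6%. CYP26B1, an enzyme that breaks down retinoic acid, rose by 1.30 (standard error 0.19) in HCT116 5/4, and the receptor gene RARA fell by 0.69 (0.22). CDX2, a gut transcription factor that acts on HOX genes, was at -0.43 (0.23) in HCT116 5/4 and 0.31 (0.14) in HCT116* 8/3 c7. In RPE1 5/3 12/3 ALDH1A1, an enzyme that makes retinoic acid, was the 1 gene called. It had implied levels of 6.13 and 31.4 normalised counts and a log2 fold change of 2.36 (0.56). ALDH1A1 passed the filter on the mean only through the aneuploid line, so nothing is read from its call or direction.

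Of the listed RNAs of the clusters past the filter on the mean, 2 of 4 were called in HCT116 5/4 (background 20.6%), both higher. In HCT116* 8/3 c7 0 of 6 were called (background 1.80%), with 0 at an unadjusted p under 0.05 in the DESeq2 fit. Nothing is read from counts over so few RNAs. HOXB-AS3 rose by 1.41 (standard error 0.27) in HCT116 5/4 and was at 0.14 (0.17) in HCT116* 8/3 c7. HOTAIR, at a mean of 7.54 and so under the filter, was at -3.77 (0.76, adjusted p = 1.21e-05) in HCT116 5/4, the opposite sign to RPE1 5/3 12/3, and HOXC11 beside it was at -3.03. HOXD-AS1, at a mean of 9.64 and also not called, was at -3.20 (0.69, adjusted p = 4.13e-05). Around the clusters in HCT116 5/4, SKAP1 next to HOXB and NFE2 next to HOXC fell, with -1.42 and -1.69, while TAX1BP1 near HOXA rose by 0.71. Within 2 Mb of the clusters the medians in that line were 0.24 for HOXA, 0.05 for HOXB, 0.10 for HOXC and -0.06 for HOXD.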

How the data were processed

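RNA of 24 libraries (3 per line) was sequenced as single reads. Per the labels and methods, the authors trimmed adapters with cutadapt, mapped reads to hg19 with TopHat2 2.0.10, counted them on exons of RefSeq genes with featureCounts 1.4.3 and fitted DESeq2, whose version is not given in the sources used here. The authors deposited 4 tables made with DESeq2 from these counts, each normalised separately, with the mean normalised count over 6 libraries (a signal), the log2 fold change, its standard error, the Wald statistic (a score) and its p-value, raw and adjusted. These are columns of the authors' own comparisons. No counts per library were used here, so every fold change, standard error and p-value for a line is the authors' deposited value, and nothing was refitted. The Wald statistic and the adjusted p-values were checked against the other columns and differed by at most 3.66e-07 and 3.26e-06.

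From these values the calls, medians, group levels, differences between lines, windows and motif counts were computed with Python 3.11.15, numpy 2.4.6, pandas 2.3.3 and scipy 1.17.1, and figures with matplotlib 3.10.9. With m the mean and L the log2 fold change, the parental level was taken as the double of m over 1 plus 2 to the power L, and the aneuploid level as the rest, which assumes groups of equal size. Fold changes are pulled toward 0 by the fit, so group differences are understated. The difference test and the undoing of this pull were tested on simulated data. Positions and overlaps come from GENCODE for GRCh37, the same build as hg19. Genes were placed by symbol or by a single older name, and 94.7% to 95.2% of the rows were placed. Promoters are from RefSeq.

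Full values were given for those called in any line and for HOXA, HOXC and HOXD genes with a mean of 100 or more, and for other lists the counts and at most 3 members per list and line. Members outside that rule are named for position or contrast after their values were seen. The members and lists were chosen with earlier results of these data known. The alternatives were other filters on the mean, other fold change thresholds, another adjustment, centring, and undoing the pull toward 0. Some single genes are counted in the totals but not reported here by name.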

Additional observations from a re-analysis of the deposited data

Results flagged for a closer look

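The values below are differences of the log2 fold change between lines made from the same parental background, by the test of the difference with Benjamini-Hochberg adjustment over all genes with a mean of 10 or more in both tables. In HCT116 5/4 minus HCT116* 8/3 c7 the difference was 2.19 (standard error 0.40, adjusted p = 1.28e-06) for HOXA4, where the fold changes had opposite signs, 1.81 and -0.38. It was 1.21 (0.28, adjusted p = 0.000189) for HOXA9 and 1.04 (0.27, adjusted p = 0.00156) for HOXB3. HOXC6 gave 1.41 (0.33, adjusted p = 0.00023) and HOXC5 1.56 (0.51, adjusted p = 0.0151), and which of these genes the reads of shared exons belong to is uncertain. HOXB4 was closest to the threshold, with 0.68 (0.25, adjusted p = 0.04).

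In RPE1 5/3 12/3 minus RPE1* 21/3 the difference for HOXB6 was 3.28 (0.85, adjusted p = 0.00279), from fold changes of 1.19, which was not called, and -2.09. The lines of a pair also differ in their parental line, in the histone label and in the gained chromosomes, which cannot be told apart here. A search for single libraries that stand apart could not be made, since no values of single libraries were used.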

How the results depend on the processing

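The other filters, thresholds and adjustment leave the fold change in a line as it is, and undoing the prior keeps its sign. Only centring could turn the direction of a HOX gene in a line. It shifted fold changes by at most 0.0061 and turned none, so the unchanged directions say little. Under a minimum mean of 100, the genes called went from 11 to 7 in HCT116 5/4, from 3 to 0 in RPE1 5/3 12/3 and from 2 to 0 in RPE1* 21/3, since fewer genes were tested. With an absolute log2 fold change above 1 they went to 7 in HCT116 5/4 and from 1 to 0 in HCT116* 8/3 c7. With no fold change threshold, and with the prior undone, 3 were called in HCT116* 8/3 c7, where HOXA3 and HOXB9 joined HOXB8. With no filter on the mean, HOXC11 in HCT116 5/4 and HOXA5 in RPE1 5/3 12/3 passed. Centring and adjusting p over the genes with a mean of 10 or more changed none of the calls. For the difference between the HCT116-derived lines, undoing the prior left 5 of 6 calls, and HOXB4, at 0.61, no longer passed. Under that minimum the median of chromosome 12 in RPE1 5/3 12/3 was 0.43 over 586 genes, as before.

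No paired analysis was possible because the tables hold no values of single libraries, and for the same reason leaving out each replicate in turn was not run. The prior was read from the ceiling of the standard errors, which was sharp in HCT116* 8/3 c7 and RPE1* 21/3 (250 and 150 genes within 0.1% of it) and poorly marked in the other tables. Low levels limit the RPE1 results, where HOXA3, HOXC8 and HOXB5 have means of 20.2 to 27.3.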
